A study of Sus scrofa with 9 samples.

Results

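The miRNA profile of porcine sperm was compared with that of porcine pronuclear (PN) embryos, which are fertilized eggs of 1 cell whose maternal and paternal genomes still lie in separate pronuclei. All 3 sperm libraries and all 3 PN embryo libraries of the small RNA experiment entered, which makes 6 of its 9 libraries. The other 3 libraries came from MII oocytes, the mature eggs before fertilization, and their levels are given only beside a result. The labels mark all 9 as untreated pig material and name no genotype. Per the study's methods, the sequenced sperm was purified fresh sperm of Large White boars, whereas the embryos were made by in vitro fertilization with semen of Landrace boars. Oocytes and embryos were pooled in very large numbers, cumulus cells were removed with hyaluronidase, and nothing in the labels says that the replicates of a group came from separate animals, so the p-values measure only the spread between these libraries, which may be technical.

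Rows of the count table were summed by mature miRNA, after removal of the species prefix and of the suffix that marks sequence variants. Of 1084 mature names, 1032 were listed in at least 1 of the 6 libraries, 252 in every one of the 6, 165 in every sperm library but no PN embryo library, and 107 in every PN embryo library but no sperm library. Levels are given as CPM, counts per 1000000 counts of the library. A name was termed abundant where it reached at least 1000 CPM in each of the 3 libraries of a group, and scarce where it stayed under 100 CPM in each of the 3 libraries of the other group. CPM is a share of the library, so it cannot tell a change in one miRNA from an opposite change in the rest, nor an amount per cell from the number of cells.

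miRNAs are short RNAs that guide Argonaute proteins to messenger RNAs and thereby lower their translation and stability. Target choice depends mainly on the seed, the stretch of bases 2 to 8 from the 5′ end, so that miRNAs with a common seed form a family. A mature sperm has almost no cytoplasm and carries a small RNA load left from spermatogenesis and added in the epididymis, while a 1-cell embryo inherits nearly all its cytoplasm from the egg and has not yet started the main wave of transcription from its own genome.

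Mature sequences were at hand for 4 of the listed variants, from the miRNA mimics that the study ordered, and they are shown because 2 of them belong to the names abundant in PN embryos and scarce in sperm, and the other 2 form a pair with a common seed that both groups carried at high levels. Capitals mark the seed.
bta-miR-2478_L-2: aUCCCACUucugacacca
mmu-miR-3968_L-3_1ss14AT: aUCCCACUccugacacca
ssc-miR-125a_R-1: uCCCUGAGacccuuuaaccugu
ssc-miR-125b: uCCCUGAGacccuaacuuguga
The first and second sequences, listed under miRNAs of cattle and of mouse, had the same seed and 17 of 18 bases in common, with the single substitution U9C (miR-2478 variant first, counted from the 5′ end). By sequence alone they share 1 seed under different names, and whether they are miRNAs or fragments of other RNAs was not tested. The miR-125 pair had the same seed and 15 of 22 positions in common, and the sequences part in the 3′ region.

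Sperm and PN embryos held largely different miRNAs. Of 511 names with enough counts to be tested, 431 (84.3%) were called different by the edgeR quasi-likelihood test (Benjamini-Hochberg q under 0.05 with at least a 2-fold difference in either direction). The call was higher in sperm for 206 (40.3%) and lower in sperm for 225 (44%), and the libraries of the groups did not overlap for 474 (92.8%). With such a background, a call by itself sets no miRNA apart, so sizes and levels are given with each call. A name listed in no library of a group entered the test through the other group alone, where higher was the only possible call. Across names the Spearman rho was 0.970 to 0.991 between replicate libraries and 0.269 to 0.296 between a sperm and a PN embryo library, given as a description since names are not independent. Library totals were 422630, 695288 and 771001 counts in PN embryos and 1640492, 1733419 and 2455102 in sperm. Depth thus differed between the groups without overlap, and its part in the calls cannot be told apart from the group except in the fit at equal depth.

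Few names made up most of each profile. In sperm 86 names were abundant and held 95.5% to 95.7% of the counts, and in PN embryos 79 names were abundant and held 94.2% to 94.6%. Both groups had 48 of these names in common. Of the 86 sperm names, 13 were scarce in PN embryos and 25 lay between the limits, while of the 79 PN embryo names, 18 were scarce in sperm and 13 lay between. The common names carried 78.5% to 79.2% of the sperm counts but only 39.0% to 39.5% of the PN embryo counts. The 13 sperm names took 5.93% to 6.28% of the counts of sperm and 0.0219% to 0.0385% of those of PN embryos. The 18 PN embryo names took 49.8% to 50.5% of the counts of PN embryos and 0.0386% to 0.0434% of those of sperm.

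**Figure D1:**
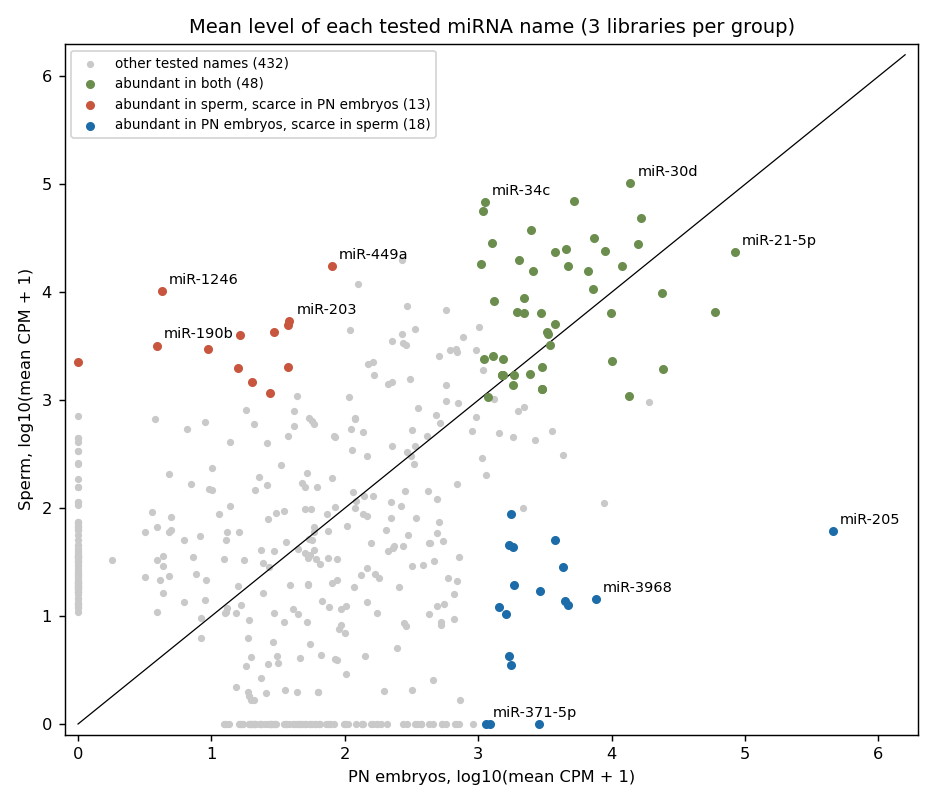
Mean level of the 511 tested miRNA names in PN embryos (horizontal axis) and in sperm (vertical axis), as log10 of mean CPM + 1 over 3 libraries each, with the line of equal level. The 13 names abundant in sperm and scarce in PN embryos lie at the upper left, the 18 of the reverse kind at the lower right with miR-205 far to the right of all others, and points on an axis are names at 0 in that group.

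The mean levels of all tested names show these blocks as separate corners, with the 48 common names spread widely on both sides of the line of equal level. Because the classes were cut by level, a difference of their members between the groups is what the cut selects, and the fold changes that follow describe its size.

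The miRNAs that sperm had in abundance and PN embryos almost lacked were led by miR-449a, of the miR-34/449 family, known for its role in spermatogenesis and in multiciliated cells. From other hairpins of the family, miR-34c and miR-34b-3p, the 3p strand of miR-34b, were abundant in both groups. miR-449a measured 17380.2, 17469 and 17598 CPM in the 3 sperm libraries and 56.8, 82.0 and 97.3 CPM in the 3 PN embryo libraries. miR-34c-3p, the minor strand of the miR-34c hairpin, stood at 4625, 5195 and 5224 CPM in sperm against 30.8, 27.3 and 50.6 CPM in PN embryos. miR-34b-5p had 3254, 2871 and 2852 CPM in sperm against 0, 18.7 and 6.49 CPM in PN embryos. None of these 3 class members came near to overlap between the groups. Sperm was 222-fold higher for miR-449a (log2 fold change 7.71 ± 0.13 SE, edgeR q = 5.38e-11) and 138-fold higher for miR-34c-3p (7.04 ± 0.19 SE, edgeR q = 8.79e-10). For miR-34b-5p, with 1 PN embryo library at 0, the difference was at least 243-fold when a listed 0 is read as up to 5 counts (edgeR q = 3.50e-09).

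A pair of names in this class is best known from other tissues. miR-203, a miRNA of stratified epithelium, measured 5457, 5476 and 5253 CPM in sperm against 35.5, 61.8 and 14.3 CPM in PN embryos, a 145-fold difference (log2 fold change 7.17 ± 0.25 SE, edgeR q = 5.66e-09). miR-375, a miRNA of pancreatic islets and other secretory cells, measured 3935, 4411 and 4428 CPM in sperm against 21.3, 34.5 and 29.8 CPM in PN embryos, a 149-fold difference (7.15 ± 0.16 SE, edgeR q = 3.38e-10). Both were thus steady in sperm and present in every embryo library at a trace level. miR-122-5p, the dominant miRNA of liver, was at 2044, 2019.7 and 2062 CPM in sperm against 40.2, 25.9 and 42.8 CPM in PN embryos, 56.2-fold apart (5.80 ± 0.15 SE, edgeR q = 8.57e-10). It was the exception among the 13 in MII oocytes, where it reached 712 ± 76.7 CPM (SD, n = 3) while the other 12 stayed under 100 CPM in every library.

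Names nearly absent from PN embryos came next. miR-1246, a name that in human cells has also been traced to fragments of the U2 small nuclear RNA, had 9001, 10806 and 10806 CPM in sperm against 0, 0 and 9.73 CPM in PN embryos. miR-190b had 3212, 3199 and 3189.7 CPM in sperm against 0, 8.63 and 0 CPM in PN embryos. miR-10001-5p, listed in no PN embryo library, had 1919, 2571 and 2211 CPM in sperm. Each of these was listed in at most 1 embryo library. The lower bounds of the differences, against 5 counts per library at 0, were 1065-fold, 356-fold and 263-fold (edgeR q = 1.86e-09, 2.25e-09 and 9.31e-08). miR-1246 was summed over 7 rows and the 5 counts were set for the sum, so its bound may be too high. PC-3p-835, a name with the prefix PC that carries no known miRNA name, had 4045, 4102 and 3975 CPM in sperm against 0, 30.2 and 15.6 CPM in PN embryos, at least 210.5-fold apart (edgeR q = 6.57e-09). The last 3 of the 13 were miR-9-3p, of a hairpin known from neural progenitors, miR-15b-3p, the minor strand of miR-15b, and miR-10a-5p, whose gene lies in a HOX cluster. Their means were 1167 to 1981 CPM in sperm and 14.9 to 26.4 CPM in PN embryos.

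In all, 7 of the 13 names were listed in every PN embryo library, 5 in some and 1 in none, and 4 of the 13 were listed in no MII oocyte library. Only 4 of the 13 carried the pig prefix, 1 the prefix PC, and 8 were listed only under another species. The limits were close for some names. miR-449a, at 97.3 CPM in its highest PN embryo library, lay just inside, and mir-1285-p5 and miR-28-3p, at 141 and 147 CPM there and at means of 4476 and 11971 CPM in sperm, lay just outside. miR-425-5p was also kept out by the limit, at 269 ± 41.1 CPM in PN embryos against 20091 ± 1026 CPM in sperm (SD, n = 3).

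The reverse class was dominated by 1 miRNA. miR-205, which together with the miR-200 family represses the ZEB factors and holds cells in the epithelial state, measured 457932, 451440.0 and 451824 CPM in PN embryos against 70.7, 58.3 and 52.5 CPM in sperm. It alone was 45.1% to 45.8% of all PN embryo counts and 0.00525% to 0.00707% of sperm counts. The difference was 7499-fold (log2 fold change -12.91 ± 0.08 SE, edgeR q = 8.78e-14). The minor strand miR-205-3p had 374, 298 and 339.8 CPM in PN embryos and 0 in every sperm library, at least 127-fold apart (edgeR q = 1.06e-07). It entered the test through the PN embryo libraries alone, so lower in sperm was the only possible call. The hairpin gene MIR205 lies at chr9:133517078-133517146 in the RefSeq annotation of Sscrofa11.1. In MII oocytes miR-205 was 45.8% to 49.3% of the counts.

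Below miR-205, miR-3968 and miR-2478 stood out, whose sequences shown above have the same seed and whose nature as miRNAs was not tested. miR-3968 measured 7498, 7652 and 7655 CPM in PN embryos against 9.75, 13.6 and 16.5 CPM in sperm, 573-fold apart (log2 fold change -9.13 ± 0.13 SE, edgeR q = 2.67e-11). miR-2478 measured 4368, 4298 and 4289.9 CPM in PN embryos against 20.7, 27.1 and 35.4 CPM in sperm, 156-fold apart (-7.25 ± 0.16 SE, edgeR q = 3.09e-10). Almost all counts of both names came from the printed sequences. The bta-miR-2478_L-2 sequence alone stood at 4216 ± 42.1 CPM in PN embryos against 27.8 ± 7.38 CPM in sperm, and the mmu-miR-3968_L-3_1ss14AT sequence at 7412 ± 87.6 and 10.5 ± 1.29 CPM (SD, n = 3). The class also held miR-7977, with 4454, 4366 and 4587 CPM in PN embryos against 7.31, 15.0 and 15.9 CPM in sperm, and miR-4454, with means of 1621 ± 46.6 and 9.36 ± 2.32 CPM (SD, n = 3). The differences of miR-7977 and miR-4454 were 351-fold and 173-fold (edgeR q = 1.88e-10 and 2.14e-10), and whether they are miRNAs was not tested either. miR-1260 missed the class by its highest sperm library of 115 CPM, at a PN embryo mean of 8756 ± 269 CPM (SD, n = 3).

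Known miRNAs of the class included miR-31, an epithelial miRNA that acts on cytoskeletal and adhesion genes, with 4694, 4879 and 4527 CPM in PN embryos against 12.8, 11.5 and 10.6 CPM in sperm. miR-155-5p, a regulator of immune cells, had a mean of 1686 ± 74.5 CPM in PN embryos against 3.25 ± 2.93 CPM in sperm (SD, n = 3). miR-371-5p, of the cluster that marks early embryos and pluripotent cells, had 1107, 1063 and 1241 CPM in PN embryos and 0 in every sperm library. These 3 were 404-fold, at least 395-fold and at least 428-fold lower in sperm (edgeR q = 1.46e-11, 4.44e-09 and 8.24e-09). miR-574-3p lay closest to the limit, at 1756 ± 83.5 CPM in PN embryos against 87.9 ± 11.2 CPM in sperm (SD, n = 3).

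Several further members carry names from other species, or the prefix PC. miR-9993a-3p measured 3781, 3561 and 3878 CPM in PN embryos against 36.0, 55.4 and 57.4 CPM in sperm. miR-1386 measured 3022, 2812 and 2943 CPM in PN embryos against 17.1, 14.4 and 16.3 CPM in sperm. miR-9995-3p measured 1848, 1735 and 1931 CPM in PN embryos against 21.9, 18.5 and 15.1 CPM in sperm. They were 75.4-fold, 184-fold and 99.4-fold lower in sperm (edgeR q = 1.06e-09, 2.47e-11 and 8.55e-11), and none overlapped between the groups. PC-3p-3013, at 2863, 2826 and 2869 CPM in PN embryos, was listed in no sperm library and was at least 1074-fold lower there (edgeR q = 8.81e-10). miR-507a measured 1836, 1832 and 1769 CPM in PN embryos against 42.7, 43.8 and 42.4 CPM in sperm (42.2-fold, edgeR q = 7.04e-11). The remaining names were PC-3p-1269, miR-9993b-3p, miR-509a-5p and miR-1261, with means of 1223 to 1752 CPM in PN embryos and 0 to 44.8 CPM in sperm.

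Of the 18 names, 13 were listed in every sperm library, 2 in some and 3 in none. In MII oocytes 16 of the 18 were at or above 1000 CPM in every library. Levels in PN embryos were above those of every MII oocyte library for 10 names and below for 5. By number of names, 5 were under the pig prefix, 2 under the prefix PC and 11 under other species only.

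**Figure D2:**
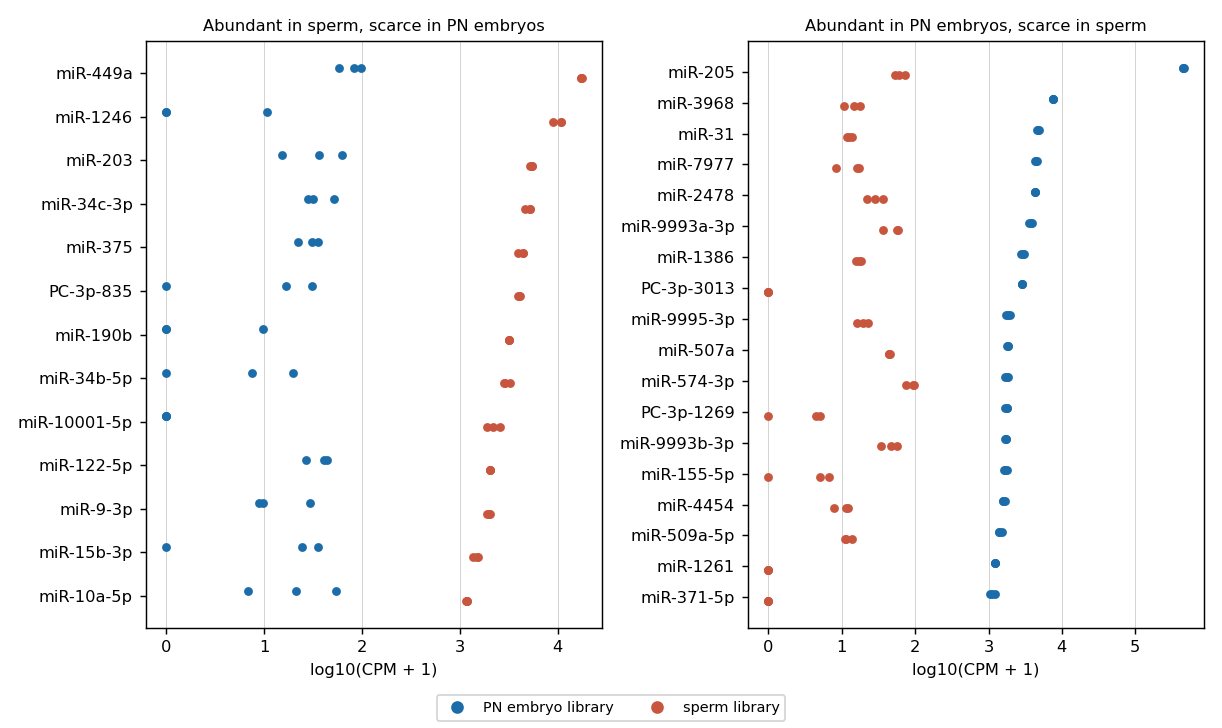
Level of the 13 names abundant in sperm and scarce in PN embryos (left) and of the 18 names of the reverse kind (right), as log10 of CPM + 1 with 1 point per library, 3 libraries per group. No group overlaps the other for any name, and points at 0 are libraries in which the name was not listed.

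The plot of the class members by library shows that replicates of the abundant group were close together for every name, and that the spread was wide only near the lower end, where a name rests on a few counts.

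Abundance in one group did not exclude abundance in the other. The 3 leading miRNAs of sperm were all abundant in PN embryos as well. miR-30d measured 103175, 103118 and 101673 CPM in sperm against 13602, 13666 and 13981 CPM in PN embryos. miR-191 measured 68847, 68764 and 70928 CPM in sperm against 5366, 5103 and 5191 CPM in PN embryos. miR-34c measured 71231, 66453 and 66992 CPM in sperm against 1067, 1221 and 1053 CPM in PN embryos. The groups stood far apart for each, by 7.47-fold, 13.3-fold and 61.3-fold (edgeR q = 6.73e-11, 6.73e-11 and 1.46e-11). miR-34c and miR-34b-3p, with a mean of 56769.9 ± 1285 CPM in sperm against 1088 ± 7.71 CPM in PN embryos (SD, n = 3), were not in the scarce class, as each took about 1 in 1000 embryo counts. In MII oocytes miR-34c was at 1403 ± 77.3 CPM and miR-34b-3p at 546 ± 81.1 CPM (SD, n = 3).

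After miR-205, the leading miRNAs of PN embryos were miR-21-5p, a miRNA of growing and inflamed tissue, and miR-128, best known from neurons. miR-21-5p measured 82585, 84523 and 83628 CPM in PN embryos against 23703, 23829 and 23517 CPM in sperm. miR-128 measured 58964, 60251 and 58842 CPM in PN embryos against 6107, 6781 and 6940.2 CPM in sperm. Both were abundant in sperm and yet lower there, by 3.53-fold and 8.98-fold (edgeR q = 1.13e-09 for each).

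Among the 48 common names, 22 were called higher in sperm, 8 were called lower, and 18 were not called. Over all 511 tested names 84.3% were called. Some of these names share their counts, as miR-339 and miR-4334-3p had identical ones, with those of miR-339-5p within 2.36%, and miR-17-5p and miR-106a were identical. Besides miR-34c and miR-34b-3p, miR-25 differed most, with 27952, 28511 and 29199.6 CPM in sperm against 1249, 1297 and 1244 CPM in PN embryos (22.6-fold, edgeR q = 5.38e-11). The most even were miR-146a-5p, miR-335 and miR-339-5p. Their log2 fold changes were -0.11 ± 0.06, -0.13 ± 0.09 and 0.15 ± 0.10 (SE), with edgeR q values of 0.105, 0.177 and 0.171. miR-146a-5p measured 3427, 3400.0 and 3528 CPM in PN embryos against 3423, 3182 and 3188 CPM in sperm, so that 1 sperm library lay within the embryo range. The direction of these 3 changed sign under other settings and is not given here as a difference.

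The families of sperm followed their leading members. Beside the list counts that follow, 40.3% of all 511 tested names were called higher in sperm and 44% lower. List counts include names at 0 in every library of a group, which could be called in a single direction only. Of the 10 tested names of miR-34 and miR-449, both strands counted, 9 were called higher in sperm and 1 lower, with a median log2 fold change of 7.38 against -0.13 over all tested names. The listed strands of these hairpins together were 15.2% of the mean sperm profile and 0.244% of that of PN embryos. These sums are over hairpins and not over names with a common seed. They include 3p strands such as miR-34b-3p, at a mean of 56769.9 CPM in sperm. miR-34a, a target of p53 and expressed in many tissues, went the other way, at 128, 82.0 and 70.0 CPM in PN embryos against 7.92, 10.4 and 13.4 CPM in sperm (log2 fold change -3.09 ± 0.35 SE, edgeR q = 2.27e-05). miR-449a-3p, miR-449b and miR-449b-3p were at 0 in every PN embryo and MII oocyte library. Higher in sperm was thus their only possible call, and they also enter the median. Their sperm means were 335 ± 16.2, 36.7 ± 1.92 and 709 ± 4.12 CPM (SD, n = 3).

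The hairpins of MIR425 and MIR191 lie side by side at chr13:31654994-31655563, and all 4 of their tested strands were called higher in sperm. miR-191-3p was at 0 in every PN embryo library, so higher was its only possible call. miR-425-5p measured 21272, 19580.4 and 19420.0 CPM in sperm against 296, 221 and 289 CPM in PN embryos, which was 74.7-fold (log2 fold change 6.21 ± 0.11 SE, edgeR q = 5.38e-11). The pair of hairpins made up 9.01% of the sperm profile and 0.551% of the embryo profile.

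The let-7 family, which promotes differentiation and is held low in early embryos of many animals by LIN28, was 14.4% of the sperm profile and 3.61% of the embryo profile. Of 15 tested names, 11 were called higher in sperm, 0 lower, and 4 were not called. Over all tested names 40.3% were called higher and 44% lower. The 11 include a name at 0 in every PN embryo library, for which higher was the only possible call. let-7i-5p had 39414, 36960.2 and 37150.0 CPM in sperm against 2534, 2509.8 and 2409 CPM in PN embryos (15.2-fold, edgeR q = 2.47e-11), while let-7a had 48468 ± 1174 and 16674 ± 336 CPM (SD, n = 3, 2.91-fold, edgeR q = 1.95e-08). let-7e was not called here but passed in 1 other fit, with 516 ± 22.6 CPM in sperm against 892 ± 45.6 CPM in PN embryos (SD, n = 3).

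Names of the clusters miR-17 to 92, which promote proliferation, were called higher in sperm for 14 of 19 and lower for 3. Over all tested names the shares were 40.3% and 44%. miR-92a reached 32031 ± 799.9 CPM in sperm against 7325 ± 123 CPM in PN embryos (SD, n = 3, 4.37-fold, edgeR q = 3.09e-09). miR-17-5p and miR-106a, listed with identical counts and so perhaps the same reads, were lower in sperm, at 1390.3, 1187 and 1191 CPM against 2962, 3018 and 3051 CPM (log2 fold change -1.29 ± 0.07 SE, edgeR q = 7.63e-08), a call lost in 3 other fits.

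**Figure D3:**
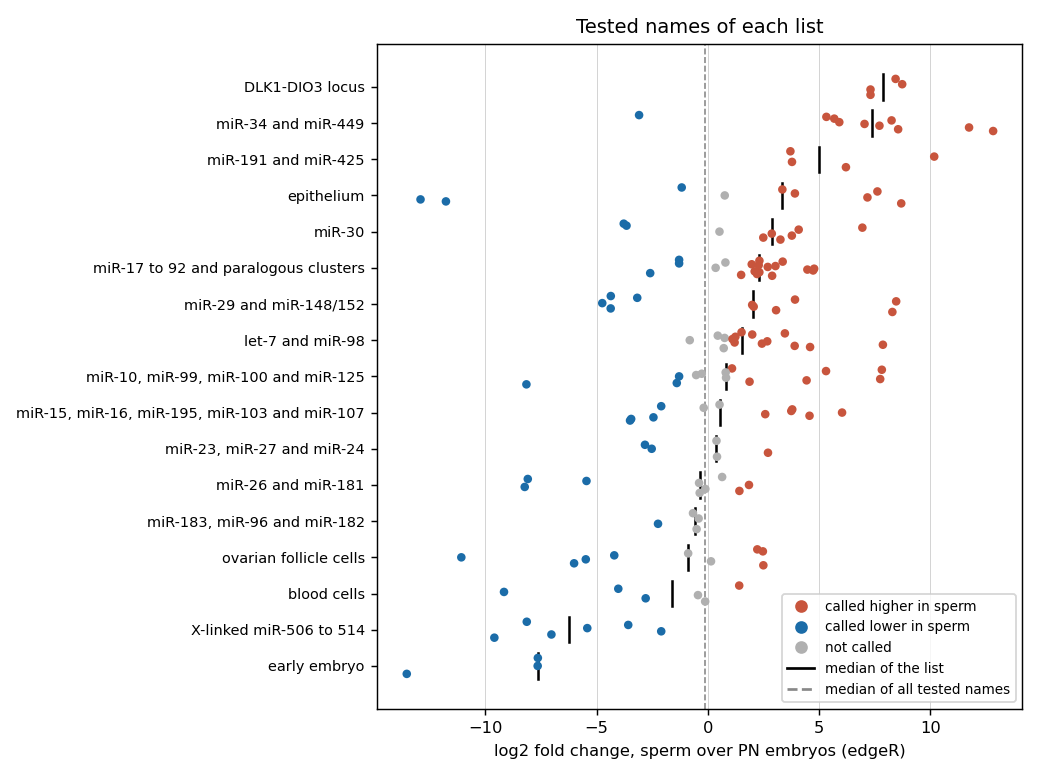
log2 fold change of each tested name, sperm over PN embryos, for lists with more than 2 tested names, with 1 point per name coloured by its call, a black bar at the median of the list and a dashed line at the median of all 511 tested names. The miR-34/449 list has 9 of 10 points to the right, the X-linked and early embryo lists have all points to the left, and several families hold points on both sides.

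The plot of fold changes by list shows that families with a common seed did not always move as one. Of 9 tested miR-30 names, both strands counted, 6 were called higher in sperm and 2 lower. Over all tested names 40.3% were called higher and 44% lower. The 6 include a name at 0 in every PN embryo library, for which higher was the only possible call. Among the 5 main strands, which are known to share the family's seed, 3 were called higher, 1 lower and 1 was not called. miR-30d, miR-30b-5p and miR-30e-5p were higher, the second with 17989.7, 18286 and 18039 CPM in sperm against 1072, 1027 and 1053 CPM in PN embryos (17.2-fold, edgeR q = 5.38e-11). miR-30a-5p was lower, with 1123, 1100.4 and 1044 CPM in sperm against 13537, 12885 and 13959.8 CPM in PN embryos (12.4-fold, log2 fold change -3.65 ± 0.06 SE, edgeR q = 5.43e-11). The other strand of the same hairpin, miR-30a-3p, was lower, too (log2 fold change -3.78 ± 0.16 SE, edgeR q = 2.44e-08). MIR30D and MIR30B lie together on chromosome 4 and MIR30A lies on chromosome 1, at chr1:51412827-51412933. Summed over the family, miR-30 was 15.3% of the sperm profile and 3.80% of the embryo profile.

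The miR-15/16 seed family was split in the same manner. miR-16 measured 15613, 15588 and 15862 CPM in sperm against 2648, 2579 and 2512 CPM in PN embryos, and miR-15b 4360.3, 4739.8 and 4591 CPM against 331, 352 and 318 CPM. miR-497 measured 48.8, 45.6 and 51.3 CPM in sperm against 596, 462 and 572 CPM in PN embryos, and miR-195 had means of 42.1 ± 5.06 and 228 ± 27.1 CPM (SD, n = 3). miR-16 and miR-15b were thus higher in sperm by 6.08-fold and 13.7-fold (edgeR q = 8.39e-10 and 8.48e-10), and miR-497 and miR-195 lower by 11.2-fold and 5.41-fold (edgeR q = 3.27e-08 and 1.44e-06). The genes follow the same division, as MIR15B and MIR16-1 are neighbours on chromosome 13 and MIR195 and MIR497 are neighbours on chromosome 12. miR-16 also has a copy, MIR16-2, beside MIR15A on chromosome 11, and miR-15a was higher in sperm (14.4-fold, edgeR q = 1.77e-08).

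Between miR-148b-3p and its relatives miR-148a-3p and miR-152, which share a seed and are known to target DNMT1, the contrast was larger still. miR-148a-3p measured 19114, 18643 and 19826 CPM in PN embryos against 956, 955 and 941 CPM in sperm. miR-152 measured 636, 582 and 562 CPM in PN embryos against 19.5, 16.7 and 28.9 CPM in sperm. miR-148b-3p measured 187, 205 and 285 CPM in PN embryos against 3557, 3457 and 3587 CPM in sperm. The first and second were lower in sperm by 20.2-fold and 27.3-fold and the third higher by 15.7-fold (edgeR q = 2.88e-11, 2.95e-08 and 6.47e-09).

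**Figure D4:**
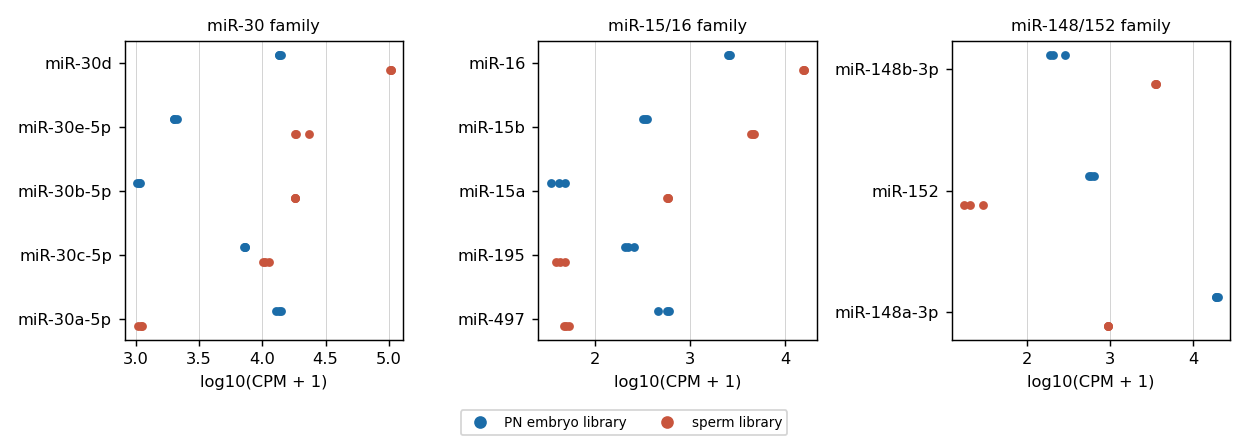
Levels of members of the miR-30, miR-15/16 and miR-148 and miR-152 seed families, as log10 of CPM + 1 with 1 point per library, 3 PN embryo and 3 sperm libraries. In each family some members have all sperm points to the right and others have all sperm points to the left, as miR-30b-5p and miR-30a-5p show at 17.2-fold and 12.4-fold.

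The levels of these paralogs by library leave no overlap between the groups for any of the 13 names drawn. The seed pair shown above was less divided. miR-125b was lower in sperm, with 9915, 9981 and 9819 CPM against 24039.9, 24148 and 23239 CPM (log2 fold change -1.29 ± 0.06 SE, edgeR q = 2.50e-08, a call lost in 3 other fits), and miR-125a was not called (-0.52 ± 0.08 SE, edgeR q = 1.26e-04). The sum for miR-125a hid a difference between listed variants. ssc-miR-125a_R-1 had 2182, 2251 and 2101 CPM in PN embryos against 1099.7, 939.8 and 956 CPM in sperm, whereas sha-miR-125a_R+2 had 279, 249 and 258 CPM in PN embryos against 882, 662 and 659.9 CPM in sperm. The variants were described and not tested here. Over the 13 tested names of miR-10, miR-99, miR-100 and miR-125, 6 were called higher in sperm, 3 lower, and 4 were not called. The shares over all tested names were 40.3% higher and 44% lower.

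Lists with lower levels in sperm were led by the early embryo and the X-linked names. Of the early embryo list (miR-371 to 373, miR-302 and miR-367), 3 names were tested, miR-371-5p, miR-371-3p and miR-302b-3p. All 4 listed names were at 0 in every sperm library, so the 3 entered the test through the PN embryo libraries alone. Lower in sperm was thus the only possible call, and all 3 were so called. With a replicate block the calls of miR-371-3p and miR-302b-3p were lost (edgeR q = 0.0536 and 0.0552). The last 2, named after their values were seen, had means of only 19.9 ± 9.36 and 20.3 ± 13.8 CPM in PN embryos (SD, n = 3). miR-506 to miR-514 are known in other mammals as a fast-evolving cluster of the X chromosome with expression in testis. All 6 tested names were called lower in sperm, against 44% over all tested names. A name at 0 in every sperm library, 1 of the 6, could be called lower only. The median log2 fold change was -6.22, and the summed level was 4477 ± 98.8 CPM in PN embryos against 148 ± 7.49 CPM in sperm (SD, n = 3). miR-514 had 686, 685 and 803 CPM in PN embryos against 0, 0 and 2.04 CPM in sperm, at least 273-fold apart (edgeR q = 9.65e-09).

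Epithelial names were divided. Although miR-205 was far higher in PN embryos, and as high in MII oocytes, 5 of 9 tested names of the list were called higher in sperm. Over all tested names the share was 40.3%. miR-200b measured 4248, 4049 and 3913 CPM in sperm against 277, 239 and 281 CPM in PN embryos (15.3-fold, edgeR q = 3.05e-10), and miR-200a had means of 599.5 ± 11.4 and 57.9 ± 1.09 CPM (SD, n = 3, 10.4-fold, edgeR q = 1.18e-08). miR-200c was not called here but passed in 4 other fits, with 1888 ± 89.2 and 1090.5 ± 99.7 CPM (SD, n = 3). In the epithelial list miR-203, miR-200a and miR-200b were therefore higher in sperm and miR-205 lower.

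Markers of cells that could accompany the egg or sperm were examined as well. Of 9 tested names known from ovarian follicle cells, 3 were called higher in sperm and 4 lower. Over all tested names 40.3% were called higher and 44% lower. miR-202-5p, a miRNA of the gonads, had 646, 631 and 689 CPM in PN embryos against 11.6, 23.7 and 10.2 CPM in sperm (43.3-fold, edgeR q = 3.45e-08), while miR-132 had 2835, 3003 and 2955 CPM in sperm against 627, 618 and 608 CPM in PN embryos (4.74-fold, edgeR q = 1.09e-08). The summed level of the list ran from 2025 to 2193 CPM in PN embryos and from 4379.8 to 4519 CPM in sperm. Of 6 tested blood cell names, 1 was called higher in sperm, miR-142-5p (log2 fold change 1.41, edgeR q = 1.57e-04), and 3 were called lower. The sum of the list ran from 837 to 875 CPM in PN embryos and from 268 to 380.0 CPM in sperm. The erythroid miR-451 was at 509 ± 35.9 CPM in PN embryos, 102 ± 36.4 CPM in MII oocytes and 73.4 ± 28.5 CPM in sperm (SD, n = 3). Of the muscle names, 1 was tested, miR-206, named after its values were seen, at 13.6 ± 3.65 CPM in sperm and 0 in PN embryos. The part of such cells in the results was not tested.

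Names of the imprinted DLK1-DIO3 locus, expressed from the maternal chromosome in other tissues, were at 0 in every PN embryo library for all 18 listed. In sperm 3 of the 18 were at 0 in every library as well, and the list summed to 151 ± 20.7 CPM (SD, n = 3). The 4 tested names were miR-380, miR-381-3p, miR-411 and miR-411a-5p. They entered the test through the sperm libraries alone, so that higher in sperm was the only possible call, and all 4 were so called. miR-411 and miR-411a-5p had identical counts, and all 4 were named after their values were seen.

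The other lists were mixed, beside 40.3% called higher in sperm and 44% lower over all tested names. For miR-29 and miR-148 and miR-152, 6 of 10 tested names were called higher in sperm and 4 lower, and for miR-15, miR-16, miR-195, miR-103 and miR-107, 5 of 11 higher and 4 lower. Among miR-23, miR-27 and miR-24, miR-27a was higher in sperm (6.65-fold, edgeR q = 5.09e-08), and miR-23b and miR-24-3p were lower (6.98-fold and 5.66-fold, edgeR q = 2.23e-09 and 3.04e-08). Of miR-26 and miR-181, 2 of 9 were higher and 3 lower. miR-26a had a mean of 24236 CPM in sperm against 8906 CPM in PN embryos, and miR-181b was 46.9-fold lower in sperm (edgeR q = 3.62e-07). Of the miR-183, miR-96 and miR-182 strands, 3 of 4 were not called, and neither miR-221-3p nor miR-222 was called.

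The position of the genes was read from RefSeq for Sscrofa11.1, in which 240 of the 511 tested names had a hairpin gene of the same symbol. Of 29 names on the X chromosome, 6 were called higher in sperm and 16 lower (55.2%), with a median log2 fold change of -1.29. Of 204 names on autosomes, 87 were called higher and 72 lower (35.3%), with a median of 0.26. Over all 511 tested names 44% were called lower, with a median of -0.13. The median X chromosome name was miR-106a, which has the same counts as the autosomal miR-17-5p. Names with loci on both, such as let-7f-5p, miR-92a and miR-19b, are not among the X chromosome names. The sets do not hold all 240 matched names. The miR-506 to miR-514 names are in neither set, as none was matched. On placed chromosomes, hairpins within 10000 bases of each other formed 30 clusters with 87 tested names, of which 14 have more than 1 locus and may count in more than 1 cluster. In 7 clusters every tested name was called higher in sperm, in 4 every name lower, and 4 had called names in both directions. Over all 511 tested names 40.3% were called higher in sperm and 44% lower. Most clusters were small, both strands of a hairpin counted as names, and some names, such as miR-191-3p, had only 1 possible call. Whether names of a cluster agree more than other names was not tested.

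Finally, the share of the 2 strands of a hairpin was compared. Both strands were labelled for 36 hairpins with enough counts. Of these, the share of the 3p strand differed by less than 5 percentage points between the groups for 25, and the median absolute difference was 1.97 points. The libraries did not overlap for 25, and the leading strand, by the mean share of a group, changed for 3. For 29 further hairpins 1 name had no arm and was taken as the missing strand, an assumption that was not tested, and for miR-339 the name without an arm repeats the counts of the 5p name. The largest difference was in miR-335, whose 3p strand was 12.4%, 12.2% and 13.4% of the hairpin in PN embryos and 65.8%, 66.1% and 66.7% in sperm, if the name without an arm is taken as the 5p strand. The name without an arm was among the most even of the common names, and the difference lay in miR-335-3p, at 3365 ± 173 CPM in sperm against 270.2 ± 26.7 CPM in PN embryos (SD, n = 3, 12.5-fold, edgeR q = 3.21e-09). For miR-28 the 3p share was 84.2% ± 1.15 in sperm and 43.2% ± 6.71 in PN embryos (SD, n = 3), the latter from 132 to 227 counts of the hairpin per library. In the opposite direction, the 3p share of miR-423 was 18.4% ± 1.39 in sperm and 37.8% ± 1.59 in PN embryos (SD, n = 3), and those of mir-2904-3 and mir-1285 were 15.4% against 51.3% and 42.3% against 72.8%. The PN embryo libraries of mir-2904-3 had 57.3%, 40.3% and 56.4%, from 117 to 275.5 counts of the hairpin, so the leading strand there varied by library. The lower-case names are listed with strands p5 and p3, and their nature as miRNAs was not tested.

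**Figure D5:**
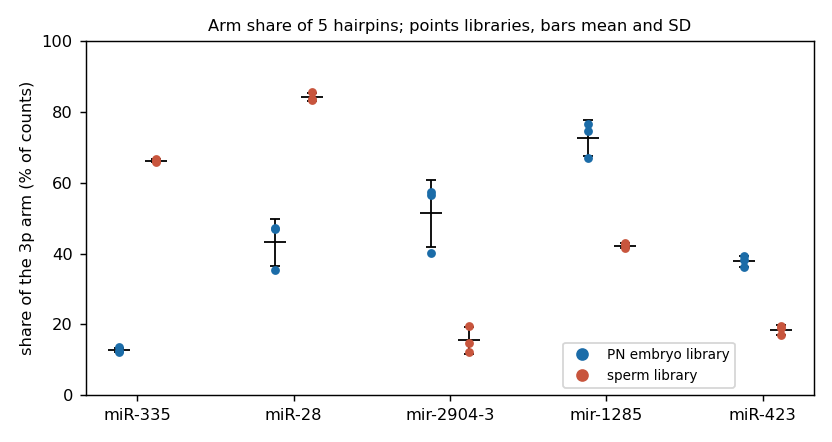
Share of the 3p strand in the summed counts of both strands, in percent, for the 5 hairpins with the largest difference between the groups, with 1 point per library and bars at the mean and SD of 3 libraries. In sperm the 3p share is higher for miR-335 and miR-28 and lower for mir-2904-3, mir-1285 and miR-423, and no group overlaps the other.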

How the data were processed

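Small RNA of pig sperm and PN embryos was sequenced after adapter ligation, reverse transcription and PCR. The authors deposited estimated counts per listed name, not normalized, of which 19.8% of those above 0 had a fractional part. The submitters' notes name Sscrofa11.1, while the aligner and caller are not given in the sources used here. The table had 1420 rows, 1313 full names and 0 further sample columns. Columns were matched to samples by library name. Values of 1 never occurred and 5 was the most frequent low value, so a listed 0 was read as up to 5 counts per library in lower bounds of folds. The 5 counts were set per mature name. For names summed over several rows, such as miR-1246 and miR-34b-5p, more counts may be unlisted and the true bound lower. A floor of 3 counts corresponds to 3.89 to 7.10 CPM in PN embryos and 1.22 to 1.83 CPM in sperm, for counting error only.

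Rows were summed by mature name, rounded and fitted with edgeR 4.0.16 in R 4.3.3 (quasi-likelihood test, TMM, filterByExpr with a minimum count of 10, group as the only factor, 6 libraries). q is the Benjamini-Hochberg value over all 511 tested names, which held 99.9% of the counts. SE is the absolute log2 fold change divided by the square root of F. The procedure was tested on simulated counts. Replicates differed by more than sampling noise (chi-square per degree of freedom 2.53 to 15.2) and were counted separately. Same-numbered libraries deviated together with correlations of only 0.000896 to 0.0136.

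Names given are the members of both one-sided classes, the 3 highest of each group, the 3 most even and 3 most different common names, list members of at least 100 CPM in a group, and the 5 hairpins with the largest difference of strand share. The members and lists were chosen with earlier results of these data known. Names outside this rule (miR-1260, miR-34a, miR-449b, mir-1285-p5, miR-206, miR-371-3p, miR-302b-3p and the DLK1-DIO3 names) were chosen after their values were seen. Alternatives were DESeq2 1.42.0, other size factors, filters, summing rules, thresholds and class limits, all 9 libraries, a replicate block, equal depth, and leaving out each library. One without miR-205 in the fit was chosen after seeing the data.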

Additional observations from a re-analysis of the deposited data

How the results depend on the processing

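The 431 calls among 511 names tested became 294 of 359 without the PC and lower-case mir names, 332 of 397 at equal depth, 602 of 1032 without a filter on low counts and 428 of 511 with DESeq2. The shares were 81.9%, 83.6%, 58.3% and 83.8%, so the count followed the number tested except without the filter. Leaving out 1 library gave 427 to 527. A fit with a replicate block, though the numbers do not pair the libraries, called 376 of 511 (73.6%), all among the 431. The classes were set by their limits. With scarce read as under 10 CPM they held 3 and 5 names in place of 13 and 18, and with CPM computed without miR-205 they held 11 and 27, with 55 names abundant in both. The names that left the sperm class without miR-205 were miR-449a and miR-203. Leaving out 1 library gave 13 to 14, 18, and 48 to 49 names.

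Of 110 named miRNAs, 99 kept direction and call in every fit. The even names changed sign, and the cause was not tested. The log2 fold change of miR-146a-5p was 0.203 with all 9 libraries, 0.199 without a filter and without miR-205, 0.0124 with repeated rows counted once, and -0.116 to 0.0940 with 1 library left out (0.0737 and 0.0940 without PN embryo library 2 or 3). That of miR-335 was 0.176, 0.172 and 0.173 in the first 3 of these and -0.135 to 0.0678 with 1 library left out (0.00369, 0.00726 and 0.0678 without PN embryo library 1, 2 or 3), and that of miR-339-5p was -0.0241 at equal depth and -0.0424 without PC and mir names. miR-125b, miR-17-5p and miR-106a lost the call in 3 fits, at -0.98, and miR-371-3p and miR-302b-3p under the block. Calls were gained by miR-200c (1.00 to 1.07) and miR-10b (1.01 to 1.11) in 4 fits each, those with all 9 libraries, without a filter, without miR-205 and without PN embryo library 2, and by let-7e (-1.003) without PC and mir names. The median over all names ran from -1.08 without a filter to 0.59 without PN embryo library 3, and was -0.05 with DESeq2 size factors. Depth differs between the groups, and names of a few counts are bounds only.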

Other observations

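Of the class that sperm nearly lacked, PC-3p-3013 was at 2597 ± 91.6 CPM, miR-1261 at 1544 ± 51.4 CPM and miR-371-5p at 1183 ± 98.9 CPM in MII oocytes (SD, n = 3). miR-3968, miR-31 and miR-7977 had mean levels of 4383, 2972 and 2364 CPM in MII oocytes against 7602, 4699.9 and 4469 CPM in PN embryos. miR-4454 was the lowest of the 18, at 753 ± 92.3 CPM in MII oocytes against 1621 ± 46.6 CPM in PN embryos (SD, n = 3). Both printed sequences of miR-2478 and miR-3968 end in the bases cca, which is also the end of mature transfer RNAs.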
